A study of Homo sapiens with 6 samples.

Results

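The comparison set severe heat, 44 °C, against mild heat, 41.5 °C, in A549 cells, a long-established line from a human lung adenocarcinoma. It used 4 of the series' 6 arrays, chosen by the temperature in their labels, and each 44 °C array was paired with the 41.5 °C array of the same radiation dose. IR_HT 44 and HT 44 were heated for 1 h at 44 °C with and without 3 Gy of X-rays, and IR_HT 41.5 and HT 41.5 were treated alike at 41.5 °C. The 2 arrays kept at 37 °C, IR (3 Gy alone) and the untreated control, were used to describe how a gene ran over the temperatures and, in the model, to share the estimates of spread and of the radiation term. All cells had grown for 24 h at 37 °C beforehand. Cells given heat alone went back to 37 °C for 3 h after it, and IR cells were kept for 3 h after the X-rays. The combined treatment was irradiated straight after heating, and the later time is not stated for it, nor any time for the control. Each group had 1 array, and the sources used here do not say whether separate cultures lie behind the arrays. The p-values thus rest on the spread left over by the model, which is partly shared across genes. That spread mixes array-to-array differences, which may be technical, with any dependence of the heat step on radiation or on the later time.

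Heat unfolds proteins and releases heat shock factors, chiefly HSF1, to bind heat shock elements and switch on genes of chaperones, the proteins that refold or clear damaged ones. A separate and faster program, the immediate early genes of the EGR, FOS and JUN families, answers many stresses through MAP kinases and the serum response factor. Strong heat also disturbs splicing and transcription, and inflammatory genes driven by NF-kappaB are known to be sensitive to it.

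Each array gave log2 values for 53617 features, of which 16098 carry 1 gene symbol. Where a symbol had several features the one with the highest mean was kept, leaving 14884 genes. The array medians over all features lay between 4.39 and 4.46, and the number of arrays limits the precision: the median standard error of a difference between 44 °C and 41.5 °C was 0.14 on the log2 scale. Of the A549 and epithelial markers, 11 of 18 were measured. Of the 11, 4 had a mean log2 level over the 6 arrays above the median of all genes (5.39). The level was 11.51 for KRT18 and 7.52 for KRT7. Below the median lay the lung lineage genes NKX2-1 (4.74) and SFTPC (4.42), and also the keratin gene KRT19 (4.43). Summed over the 11, the log2 levels were 61.6 to 62.3 at 44 °C and 62.0 to 62.3 at 41.5 °C. The sums for other cell types at 44 °C and 41.5 °C were 27.7 to 27.8 and 27.2 to 27.3 for 6 of 14 leukocyte markers, 26.7 to 27.4 and 27.4 to 28.4 for 7 of 10 endothelial markers, and 10.0 to 10.1 and 9.92 to 10.8 for 3 of 10 fibroblast markers. Among the markers of all these cell types, CD14 and EPCAM were called higher and ERG and KRT7 lower at 44 °C. The part of these markers in the results below was not tested. These are bulk RNA values, in which fewer cells of a kind and less RNA per cell cannot be told apart.

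A gene was called where the contrast of 44 °C with 41.5 °C had an adjusted p under 0.05 in limma, in a model of all 6 arrays with temperature and radiation as terms. Of 14884 genes, 1805 were called (12.1%), 729 of them higher (4.9%) and 1076 lower (7.23%) at 44 °C. The falls were more numerous, but the large changes were mostly rises: 154 called genes were at least 2-fold higher and 71 at least 2-fold lower. On simulated arrays this model made more false calls than its threshold names, so the counts may be generous. Without its intensity trend 791 genes were called, 397 higher and 394 lower, so the excess of falls was nearly gone. With each array centred on its median the balance moved further toward falls, with 580 called higher and 1432 lower. Over all features, named or not, it turned round, with 1515 called higher and 1012 lower.

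The irradiated and the non-irradiated pair share no array, so each gives its own value of the same contrast. Across genes, which are not independent replicates, the pairs' differences had a Pearson r of 0.60, and 0.77 among genes above the median level. At least 2-fold higher values appeared for 207 genes in the irradiated pair and 162 in the non-irradiated pair, and 114 genes (0.766% of all) were in both, which is 55.1% of the one list and 70.4% of the other. On the lower side the counts were 112 and 97, with 43 (0.289%) in both, or 38.4% and 44.3%. Of the 1805 called genes, 0 had opposite signs in the pairs. This count is no separate check, because the model treats a gap between the pairs as spread. A gene with opposite signs could therefore not reach the threshold.

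**Figure D1:**
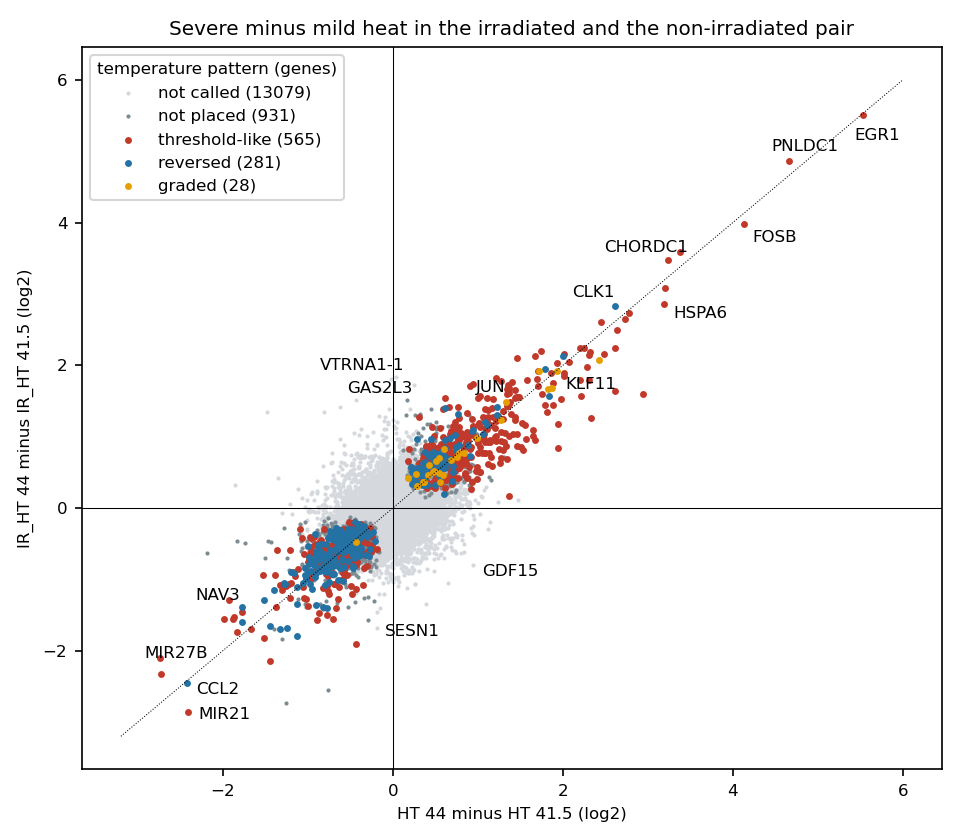
Each point is 1 of 14884 genes, with the log2 difference of HT 44 minus HT 41.5 on the x axis and of IR_HT 44 minus IR_HT 41.5 on the y axis, coloured by the temperature pattern of called genes; the dotted line marks equal differences. EGR1, PNLDC1 and FOSB lie far out near the line, whereas GDF15 and SESN1 lie below it and GAS2L3 and VTRNA1-1 above it.

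Called genes were then sorted by the 37 °C arrays. A gene was threshold-like if 41.5 °C was not called against 37 °C while 44 °C was, graded if 41.5 °C had already moved the same way, and reversed if it had moved the opposite way. Over all genes, 41.5 °C minus 37 °C called 3.29% and 44 °C minus 37 °C 6.11%. Threshold-like genes were the largest class among rises, with 331 higher and 234 lower genes. Graded genes were few, 27 higher and 1 lower, and 85 higher and 196 lower genes were reversed. The remaining 286 and 645 could not be placed. The 41.5 °C arrays enter both steps, so chance deviations in them move genes toward the reversed class, and the counts are a description. They also rest on the 37 °C arrays: without the control the reversed counts were 2 higher and 16 lower and the threshold-like counts 173 and 25, and without the IR array they were 3 and 10, and 174 and 51. Median differences show the shapes. In reversed genes that were lower at 44 °C, the median was 0.58 for 41.5 °C minus 37 °C and -0.60 for 44 °C minus 41.5 °C, leaving -0.04 for 44 °C minus 37 °C. Graded rises had medians of 0.59 for the first step and 0.62 for the second.

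**Figure D2:**
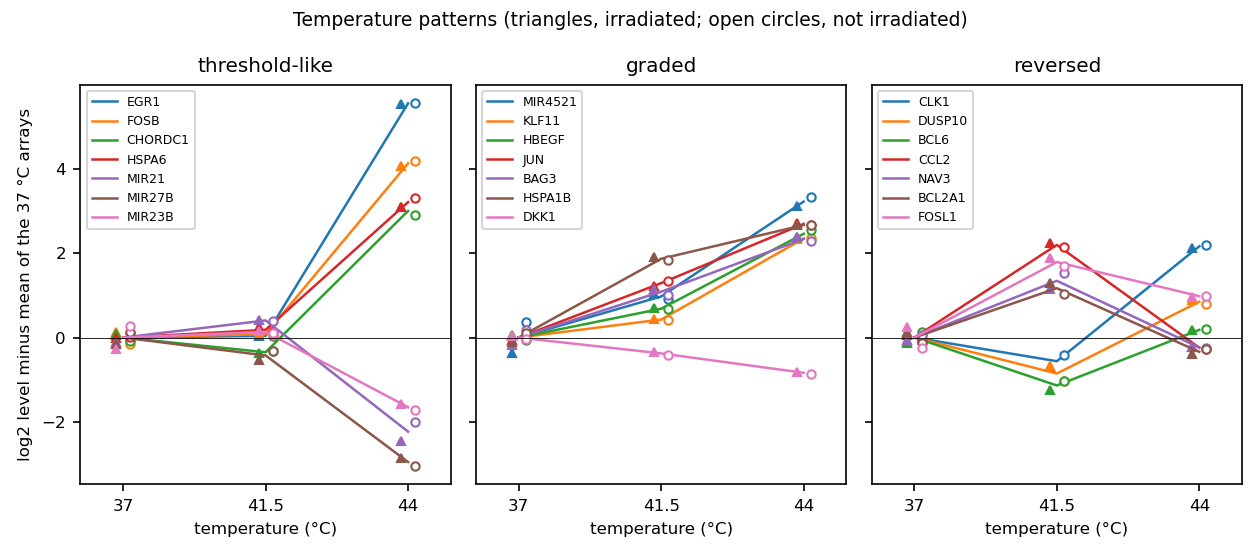
Log2 level minus the mean of the 2 arrays at 37 °C (y axis) at 37, 41.5 and 44 °C (x axis) for 7 genes of each pattern, with lines through the mean of the 2 arrays at each temperature, filled triangles for irradiated arrays and open circles for non-irradiated ones. EGR1 stays near 0 at 41.5 °C, JUN climbs at each step, and CCL2 is high at 41.5 °C and back near 0 at 44 °C.

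EGR1, a zinc finger transcription factor made within minutes of many stimuli, had the largest rise of all genes. It stood at a log2 level of 10.85 in IR_HT 44 and 10.88 in HT 44, against 5.35 in IR_HT 41.5 and 5.35 in HT 41.5. In the 37 °C arrays it was 5.36 in IR and 5.26 in the control, so after mild heat EGR1 was not called against 37 °C (0.04, adjusted p = 0.888), and after severe heat it was 45.7-fold above mild heat (5.51 ± 0.09, SE, adjusted p = 4.14e-10, limma). The serum response element, or CArG box, through which the serum response factor acts on EGR1 in many cell types, occurs 2 times in the 250 bases before its start. The window is shown because EGR1 carries the largest change; it is chr5:138465229-138465478, plus strand, GRCh38.p14, from RefSeq, and capitals mark the boxes, whose first bases lie 105 and 83 bases before the start.
EGR1: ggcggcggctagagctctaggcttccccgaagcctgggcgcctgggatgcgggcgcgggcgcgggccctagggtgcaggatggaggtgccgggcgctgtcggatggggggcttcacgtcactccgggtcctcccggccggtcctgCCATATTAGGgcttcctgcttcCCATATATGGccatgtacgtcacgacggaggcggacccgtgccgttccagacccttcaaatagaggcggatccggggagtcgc
A CArG box was found in 1.18% of the 10749 measured genes' promoters and in 6 of the 234 of threshold-like rises (2.56%). A match is a description of letters, not a measured site.

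The AP-1 family, which pairs FOS and JUN proteins into transcription factors, moved largely upward: 7 of 11 measured members were called higher, against a background of 4.9%, and 1 lower, with a median difference of 0.71, against -0.02 over all genes. FOSB had log2 levels of 9.52 in IR_HT 44 and 9.65 in HT 44, against 5.55 and 5.53 in IR_HT 41.5 and HT 41.5, a rise of 4.05 ± 0.11 (adjusted p = 2.41e-08, limma). FOS stood at 7.69 and 7.90 in IR_HT 44 and HT 44 and at 5.46 and 5.29 in IR_HT 41.5 and HT 41.5, a rise of 2.42 ± 0.12. Both were threshold-like, their 37 °C arrays lying at 5.32 to 5.74. ATF3, a stress-induced partner and repressor, rose by 1.66 ± 0.18 and was threshold-like as well. JUN differed in kind, because it climbed at both steps: 6.22 and 6.32 in IR and the control, 7.50 and 7.62 in IR_HT 41.5 and HT 41.5, and 8.98 and 8.95 in IR_HT 44 and HT 44. JUND rose by 1.26 ± 0.10, and its 44 °C arrays (8.17 and 8.22) lay above both 41.5 °C arrays, with 7.51 and 7.34 at 37 °C between them. FOSL1, or FRA-1, was the exception that fell. It was at 8.11 and 8.13 in IR_HT 44 and HT 44, against 9.03 and 8.83 in IR_HT 41.5 and HT 41.5, a difference of -0.81 ± 0.11 (adjusted p = 0.00134, limma), although 44 °C still stood above the 37 °C values of 7.38 and 6.90.

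Among 17 other immediate early genes 9 were called higher (52.9%, against 4.9% of all genes) and 1 lower (5.88%, against 7.23%), with a median of 0.48. TRIB1, a pseudokinase scaffold, stood at 9.03 and 8.91 in IR_HT 44 and HT 44 and at 7.21 and 7.71 in IR_HT 41.5 and HT 41.5 (1.52 ± 0.13). IER3, a stress-response gene that NF-kappaB drives, was the one that fell, by 0.60 ± 0.07, with 8.60 and 8.59 at 44 °C against 9.22 and 9.17 at 41.5 °C. IER3 was reversed, and its 37 °C values of 8.63 and 8.66 lay close to those at 44 °C. MYC was not called: 7.41 and 7.53 at 44 °C, against 7.50 and 8.02 at 41.5 °C (-0.29 ± 0.12, adjusted p = 0.166, limma). Of 11 MAP kinase phosphatases, which switch the kinases off again, 3 were called higher (27.3%, against 4.9% of all genes) and 0 lower. The largest was DUSP10, specific for the stress kinases JNK and p38, at 6.72 and 6.61 in IR_HT 44 and HT 44, against 5.14 and 4.78 in IR_HT 41.5 and HT 41.5.

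Of 40 listed heat shock chaperones and co-chaperones 20 were measured. Of these, 10 were called higher (against 4.9% of all genes) and 0 lower at 44 °C than at 41.5 °C, with a median of 0.39. The 10 split between 6 threshold-like and 4 graded genes. HSPA6, the strictly inducible member of the HSP70 family, was at 7.50 in IR_HT 44 and 7.71 in HT 44, against 4.64 and 4.52 in IR_HT 41.5 and HT 41.5, which is 8.15-fold (3.03 ± 0.13, adjusted p = 6.48e-07, limma). Its 37 °C values of 4.38 and 4.42 lay close to the mild heat values, and 41.5 °C was not called against 37 °C (adjusted p = 0.546). CHORDC1, an HSP90 co-chaperone, was at 9.53 and 9.33 in IR_HT 44 and HT 44, against 6.06 and 6.10 in IR_HT 41.5 and HT 41.5 and 6.50 and 6.36 in IR and the control, a rise over mild heat of 3.35 ± 0.09, or 10.2-fold.

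HSPA1A and HSPA1B, the main inducible HSP70 pair, had instead risen already at 41.5 °C. HSPA1B was at 9.95 and 10.14 in IR and the control, 11.95 and 11.88 in IR_HT 41.5 and HT 41.5, and 12.72 and 12.71 in IR_HT 44 and HT 44. Its second step was 0.80 ± 0.08 (adjusted p = 0.00016, limma) and its first 1.87. HSPA1A had steps of 1.80 and then 0.68 ± 0.08, but the near-identical sequences of these genes can share probe signal, so neither is certain as a single gene. BAG3, which links HSP70 to autophagy, moved by similar amounts at each step, 1.09 and then 1.25 ± 0.12. HSPH1, an HSP110 exchange factor, had a large first step of 1.21 and a second of 0.37 ± 0.07, whose call was lost without IR_HT 41.5 (0.29, adjusted p = 0.0661) or without IR_HT 44 (0.30, adjusted p = 0.108). HSPB1, or HSP27, had only the first step (0.83, adjusted p = 0.00026, and then -0.02 ± 0.07): 11.48 and 11.58 in IR_HT 44 and HT 44 overlapped 11.55 and 11.54 in IR_HT 41.5 and HT 41.5, all above 10.65 and 10.78 at 37 °C. HSF1 itself was not called between the heats (-0.16 ± 0.10, adjusted p = 0.371, limma).

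The promoters of HSPA6, CHORDC1 and HSPA1B are shown as examples. HSPA6 and CHORDC1 are threshold-like and HSPA1B is a graded chaperone gene, but their matches do not stand for those of their classes. Heat shock elements were searched on both strands as units GAA, TTC and GAA with any 2 bases (NN) between neighbours (3 units), and as GAA and TTC alone with the same gap (2 units, which every 3-unit match also holds). Capitals mark the 3-unit matches in HSPA6 and CHORDC1 and the 2-unit match in HSPA1B. The windows of 250 bases before the start are chr1:161524290-161524539, plus strand; chr11:90223050-90223299, minus strand; and chr6:31827488-31827737, plus strand, all RefSeq GRCh38.p14.
HSPA6: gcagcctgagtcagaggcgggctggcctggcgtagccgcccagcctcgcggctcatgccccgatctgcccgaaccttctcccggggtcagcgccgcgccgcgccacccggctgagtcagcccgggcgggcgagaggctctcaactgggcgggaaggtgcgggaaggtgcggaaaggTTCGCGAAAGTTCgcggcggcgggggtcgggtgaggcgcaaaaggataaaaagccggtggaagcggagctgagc
CHORDC1: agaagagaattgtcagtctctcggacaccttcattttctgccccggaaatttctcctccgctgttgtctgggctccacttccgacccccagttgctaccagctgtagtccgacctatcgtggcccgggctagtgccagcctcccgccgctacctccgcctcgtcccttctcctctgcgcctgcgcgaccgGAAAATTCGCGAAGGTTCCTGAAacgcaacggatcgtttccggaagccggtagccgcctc
HSPA1B: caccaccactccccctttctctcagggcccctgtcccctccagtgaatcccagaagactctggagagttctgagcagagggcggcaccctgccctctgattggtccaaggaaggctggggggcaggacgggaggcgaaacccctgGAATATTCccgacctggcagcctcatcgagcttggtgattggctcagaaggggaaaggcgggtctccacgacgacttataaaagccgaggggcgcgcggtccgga
The HSPA6 match begins 74 bases before the start. CHORDC1 has 3 overlapping matches, the first beginning 60 and the last 50 bases before its start. In HSPA1B a 2-unit match begins 105 bases before the start. Across 10749 promoters 0.419% held a 3-unit element, and 5 of the 234 threshold-like rises did (2.14%): ABHD3, CHORDC1, FBXW10B, HSPA6 and TMEM95. Of these, ABHD3, FBXW10B and TMEM95 were named after their values were seen. Among the 20 graded rises 1 held it (5%). HSPA6 and CHORDC1 were the only 2 of 17 chaperone promoters with a 3-unit element (11.8%), so the other threshold-like chaperones had no such match. The 2-unit element was in 4.55% of all promoters, in 7 of 17 chaperone promoters (41.2%), in 6 of the 20 graded rises (30.0%) and in 14 of the 234 threshold-like rises (5.98%). The graded and chaperone sets share members.

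**Figure D3:**
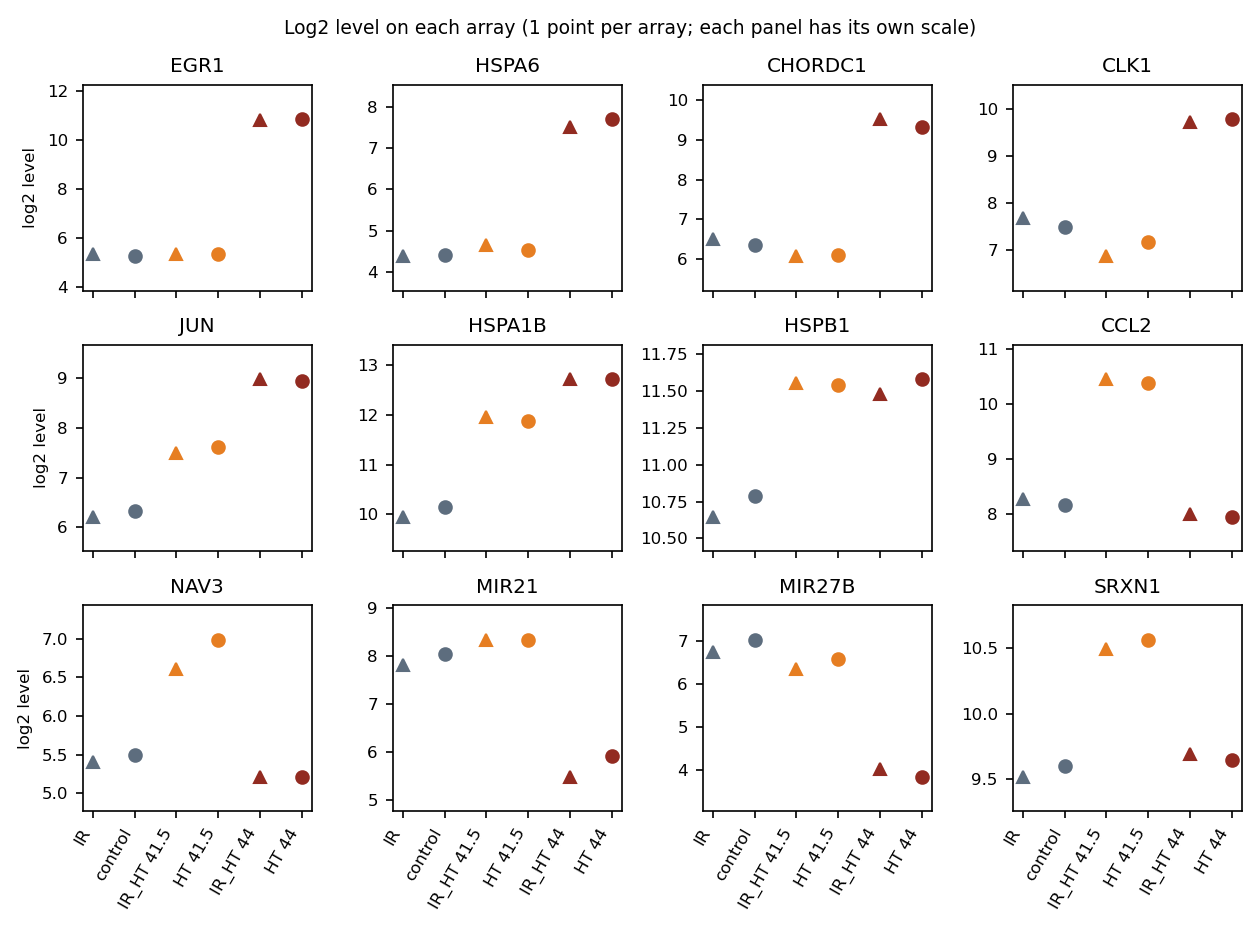
Log2 level (y axis, a separate scale in each panel) of 12 genes on each of the 6 arrays, from 37 °C (grey) over 41.5 °C (orange) to 44 °C (red), with triangles for irradiated and circles for non-irradiated arrays. EGR1, HSPA6 and CHORDC1 are high only on the 44 °C arrays shown, HSPB1 is level between both heats, and CCL2, NAV3 and SRXN1 are highest at 41.5 °C.

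Other threshold-like rises were of genes outside the lists used here for these programs, and what drives them was not tested. PNLDC1, an exonuclease that trims germline small RNAs, lay below the median of all features at 41.5 °C and far above it at 44 °C: 8.87 and 8.85 in IR_HT 44 and HT 44, against 4.01 and 4.19 in IR_HT 41.5 and HT 41.5 (27.0-fold, 4.76 ± 0.13, adjusted p = 2.41e-08, limma). The long noncoding RNA LOC100507412 rose by 3.48 ± 0.11. BCL2L15, of the BCL2 family of death regulators, rose by 2.75 ± 0.17, with 6.28 and 6.41 at 44 °C against 3.55 and 3.64 at 41.5 °C. In that family 7 of 21 were called higher (33.3%, against 4.9% of all genes) and 1 lower, with a median of 0.04 that was negative after median centring. Its rises included the pro-death BCL2L11, or BIM (1.22 ± 0.14), and the pro-survival MCL1 (0.91 ± 0.08, named after its values were seen). Its one fall was the pro-survival BCL2A1, at 5.83 and 5.95 in IR_HT 44 and HT 44, against 7.53 and 7.28 in IR_HT 41.5 and HT 41.5. BCL2A1 was reversed: IR and the control had 6.36 and 6.10, and 44 °C was not called against 37 °C (adjusted p = 0.134, limma).

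SNAI1, a repressor of epithelial genes, was at 8.22 and 8.59 in IR_HT 44 and HT 44, against 6.42 and 6.28 in IR_HT 41.5 and HT 41.5, a rise of 2.05 ± 0.13. UBB, a polyubiquitin gene, rose by 1.62 ± 0.10 and was threshold-like, while 4 of 45 measured ubiquitin genes, conjugating enzymes and deubiquitinases were called higher and 4 lower (8.89% each, against 4.9% and 7.23% of all genes). INSIG1, which holds back sterol synthesis, rose by 1.17 ± 0.11. Of 19 cholesterol genes, 4 were called higher (21.1%, against 4.9% of all genes) and 1 lower (5.26%, against 7.23%). ANKRD37, a hypoxia-inducible gene, rose by 1.52 ± 0.15. Its hypoxia and glycolysis list had 5 of 16 higher (31.2%, against 4.9% of all genes) and 2 lower (12.5%, against 7.23%). ADM, a vasodilator peptide gene also induced by hypoxia, fell by 0.74 ± 0.09, with 7.35 and 7.23 at 44 °C against 8.13 and 7.94 at 41.5 °C. ADM was reversed, with 7.56 and 7.66 at 37 °C, and 44 °C was not called against 37 °C (adjusted p = 0.0808, limma).

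**Figure D4:**
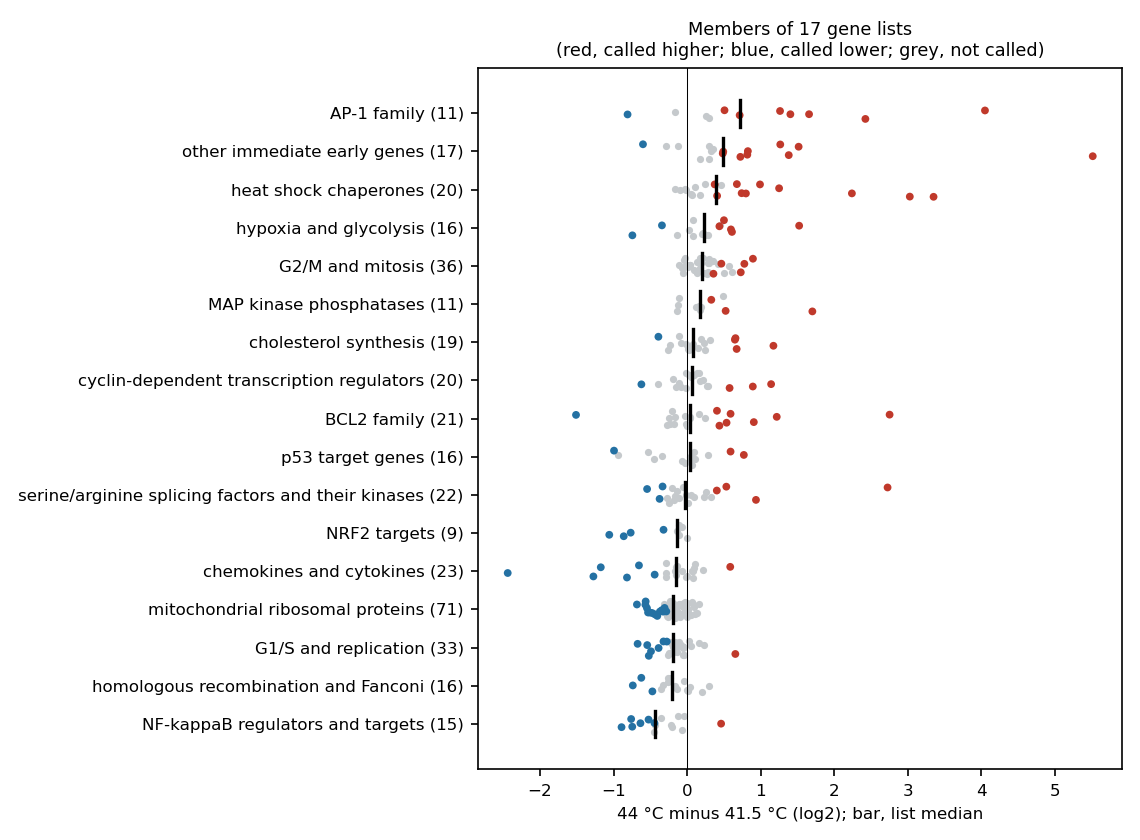
Log2 difference of 44 °C minus 41.5 °C (x axis) for each measured member of 17 gene lists (number measured in brackets), red where called higher, blue where called lower and grey where not called, with a black bar at the list median. The AP-1 members reach furthest up apart from EGR1, and most NF-kappaB members lie below 0.

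The 6 largest threshold-like falls among genes above the median level were those of 4 microRNA genes and of the pseudogenes LOC389906 (-1.80 ± 0.15) and AADACP1 (-1.77 ± 0.16). MIR21, abundant in many tumours, was at 5.47 in IR_HT 44 and 5.91 in HT 44, against 8.34 and 8.32 in IR_HT 41.5 and HT 41.5 and 7.81 and 8.04 in IR and the control. MIR21 thus fell by 2.64 ± 0.11, or 6.22-fold (adjusted p = 6.01e-07, limma). MIR27B was at 4.03 and 3.84 in IR_HT 44 and HT 44, against 6.36 and 6.57 in IR_HT 41.5 and HT 41.5 (-2.53 ± 0.14), and MIR23B of the same chromosome 9 cluster was at 5.16 and 5.00 at 44 °C, against 6.89 and 6.84 at 41.5 °C (-1.78 ± 0.16). MIR1206 fell by 2.43 ± 0.18. A graded rise ran the opposite way in MIR4521: 4.97 and 5.71 in IR and the control, 6.38 and 6.26 in IR_HT 41.5 and HT 41.5, and 8.46 and 8.68 in IR_HT 44 and HT 44. One mature sequence each of MIR21, MIR27B, MIR23B and MIR4521, which shows what the product could pair with, follows from RefSeq, with the seed (bases 2 to 8) in capitals. Other arms, and MIR1206, are not shown.
hsa-miR-21-5p: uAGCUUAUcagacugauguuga
hsa-miR-27b-3p: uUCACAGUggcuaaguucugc
hsa-miR-23b-3p: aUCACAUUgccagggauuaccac
hsa-miR-4521: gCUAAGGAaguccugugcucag
The 4 seeds differ, so the falling genes do not form 1 seed family. These array features cannot separate a mature microRNA from its longer precursors, and mature levels were not measured. Over 1098 microRNA genes, 211 of them above the median level, 30 were called higher (2.73%) and 78 lower (7.10%), shares near or under those of all genes. Called genes lay mostly above the median level, such as 545 of the 645 falls that could not be placed. Shares at like level were not compared, so these shares do not show whether microRNA genes stand out.

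Besides JUN, MIR4521 and the chaperones, the graded rises included KLF11, a repressor of the Krüppel-like family. It was at 6.21 and 6.16 in IR and the control, 6.62 and 6.61 in IR_HT 41.5 and HT 41.5, and 8.53 and 8.53 in IR_HT 44 and HT 44, so that the second step (1.92 ± 0.09) was larger than the first (0.43). HBEGF, a growth factor that activates the EGF receptor, had steps of 0.68 and 1.78 ± 0.12. FBXW10, an F-box gene, had steps of 0.94 and 1.74 ± 0.11 and is the graded gene with a 3-unit heat shock element, though its near copy FBXW10B may share probe signal. The one graded fall was DKK1, a secreted inhibitor of WNT signalling: 9.95 and 9.89 in IR and the control, 9.59 and 9.50 in IR_HT 41.5 and HT 41.5, and 9.11 and 9.06 in IR_HT 44 and HT 44. JUN, HSPA1A and HSPA1B kept the graded pattern under every setting tried, out of 12 named graded genes. Of 55 named threshold-like genes 19 did so, among them EGR1, FOSB, FOS, ATF3, HSPA6, PNLDC1 and MIR23B, while CHORDC1 kept its pattern under 12, MIR27B under 11 and MIR21 under 9 of 13 settings.

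The largest of the reversed falls was that of CCL2, a chemokine that draws in monocytes. It was at 7.99 in IR_HT 44 and 7.95 in HT 44, against 10.45 in IR_HT 41.5 and 10.37 in HT 41.5, a 5.42-fold fall (-2.44 ± 0.07, adjusted p = 3.74e-08, limma). The 37 °C arrays had 8.26 and 8.15, so CCL2 was highest at 41.5 °C among the 3 temperatures, and 44 °C was not called against 37 °C (adjusted p = 0.0893). CCL20, which attracts lymphocytes and dendritic cells, was at 5.77 and 6.04 in IR_HT 44 and HT 44, against 6.92 and 7.44 in IR_HT 41.5 and HT 41.5. CXCL8, or interleukin-8, fell by 1.17 ± 0.18, though at low levels (3.71 and 4.09 at 44 °C, 4.77 and 5.38 at 41.5 °C). Of 23 chemokines and cytokines 6 were called lower, against a background of 7.23%, and 1 higher, with a median of -0.15. The one rise, CXCL11 (0.59 ± 0.16), was lost without any single array, at adjusted p from 0.0729 to 0.211.

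Regulators and targets of NF-kappaB followed the same direction: 6 of 15 were called lower (40.0%, against 7.23% of all genes) and 1 higher, 14 of 15 values were negative, against 8019 of 14884 over all genes, and the median was -0.43. NFKB2 was at 6.42 and 6.57 in IR_HT 44 and HT 44, against 7.45 and 7.32 in IR_HT 41.5 and HT 41.5 (-0.89 ± 0.10), and NFKB1 fell by 0.76 ± 0.09. Both encode subunits of the factor. PTGS2, or COX-2, was the called rise (0.46 ± 0.11), a call lost without HT 41.5 (adjusted p = 0.0598), HT 44 (0.242) or IR_HT 41.5 (0.0857). Of 24 listed NRF2 targets, which defend against oxidants, 9 were measured. Of these, 4 were called lower (44.4%, against 7.23% of all genes) and 0 higher, and all 9 values were negative. SRXN1, which repairs peroxiredoxins, was at 9.69 and 9.64 in IR_HT 44 and HT 44, against 10.49 and 10.57 in IR_HT 41.5 and HT 41.5, and 9.52 and 9.60 at 37 °C. OSGIN1 fell by 1.06 ± 0.11. Other reversed falls were NAV3, a neuron navigator gene (5.22 and 5.21 at 44 °C, 6.60 and 6.99 at 41.5 °C), and the long noncoding RNA LINC-PINT (-1.69 ± 0.15). The difference between the heats stayed called for CCL2, SRXN1, NFKB1, NFKB2 and OSGIN1 without any 1 array, but the reversed pattern held under every setting for 2 of 29 named genes only, CCL2 and FOSL1.

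The reversed rises were lower at 41.5 °C than at 37 °C and higher at 44 °C than at 41.5 °C. CLK1, a kinase of splicing factors, was at 9.71 in IR_HT 44 and 9.78 in HT 44, against 6.87 and 7.17 in IR_HT 41.5 and HT 41.5, a 6.61-fold rise (2.72 ± 0.11, adjusted p = 4.03e-07, limma). Its 37 °C values of 7.68 and 7.49 lay a little above those of mild heat. Its list was split: of 22 splicing factors and kinases 4 were called higher (18.2%, against 4.9% of all genes) and 3 lower (13.6%, against 7.23%), with a median of -0.03. SRSF12, a serine/arginine splicing factor at a low mean level (4.63), rose by 0.94 ± 0.17 and was threshold-like, not reversed. SRSF6, a splicing factor, fell by 0.37 ± 0.08. Both calls could be lost by leaving out 1 array, that of SRSF12 without IR_HT 41.5 (0.75) and that of SRSF6 without HT 44 (-0.29). ATF7IP2, a chromatin factor, rose by 2.06 ± 0.09, with 8.27 and 8.41 at 44 °C against 6.15 and 6.41 at 41.5 °C. BCL6, a transcriptional repressor, was at 6.21 and 6.24 in IR_HT 44 and HT 44, against 4.79 and 5.01 in IR_HT 41.5 and HT 41.5, which returned it to the 37 °C values of 5.90 and 6.18. HEXIM1, which restrains the elongation kinase P-TEFb, rose by 1.14 ± 0.08, but another feature of this gene had the opposite sign. DDIT3, the stress factor CHOP, rose by 1.87 ± 0.14. The integrated stress response list it belongs to had 2 of 16 higher (12.5%, against 4.9% of all genes) and 1 lower (6.25%, against 7.23%).

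Several large groups had small median differences. Of 71 mitochondrial ribosomal protein genes 14 were called lower (19.7%, against 7.23% of all genes) and 0 higher, 59 of 71 values were negative, and the median was -0.19, with falls of the called members down to -0.68 for MRPL52, which lost its call without HT 41.5 (adjusted p = 0.0918) or HT 44 (0.143). Genes whose symbols begin with RPL or RPS were mostly cytosolic ribosomal protein genes and their pseudogenes. Of these 78, 10 were called higher (12.8%, against 4.9% of all genes) and 3 lower (3.85%, against 7.23%). RPL23AP82 and RPL23AP87 hold identical values and count as 2 of the 10, and RPS6KL1 and RPS19BP1, which encode no ribosomal protein, are among those not called. Of 436 ZNF genes, mostly DNA-binding repressors, 56 were lower (12.8%, against 7.23% of all genes) and 10 higher (2.29%, against 4.9%), and ZNF10 (1.96 ± 0.21) and ZNF394 (1.09 ± 0.11) were among the rises. G1/S and replication genes had 7 of 33 lower (21.2%, against the same 7.23%) and 1 higher. MCM10, a replication initiation factor, was at 8.05 and 7.99 in IR_HT 44 and HT 44, against 8.64 and 8.75 in IR_HT 41.5 and HT 41.5, and CCNE1, or cyclin E1, was the rise (0.66 ± 0.10). In homologous recombination and the Fanconi pathway 3 of 16 were lower (18.8%) and 0 higher, with EXO1, a resection nuclease, at -0.74 ± 0.08. Above the median level lay 66 of the 71 mitochondrial ribosomal, 32 of the 33 G1/S and 15 of these 16 genes. In other lists so did 41 of 45 ubiquitin, 14 of 15 NF-kappaB, 9 of 9 NRF2 and 16 of 16 p53 genes. Most called genes also lay above the median level. Shares at like level were not compared for any list.

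Gene span can be set beside these patterns. The median span of protein-coding genes was 17.9 kb for threshold-like rises and 15.3 kb for graded rises, against 26.7 kb for all 11916 measured ones, and 55.5 kb for reversed rises. Threshold-like falls had 31.4 kb and reversed falls 24.4 kb. These are descriptions over 22 to 269 genes a set, and no test was made of them.

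For some genes the size of the step differed between the radiation doses, which 1 array per group cannot test. In all, 210 genes had pair differences that were at least 2-fold apart, 109 with the irradiated pair higher and 101 lower. TP53I3, a p53-induced oxidoreductase gene, was at 7.04 in IR_HT 44 against 8.37 in IR_HT 41.5, and at 7.07 in HT 44 against 7.73 in HT 41.5, so it fell in both pairs but by more with radiation. SESN1, a p53-induced sestrin, was at 5.45 in IR_HT 44 against 7.14 in IR_HT 41.5, but at 5.45 in HT 44 against 5.64 in HT 41.5. The IR array (7.08) was likewise above the control (5.73), so the gap between irradiated and non-irradiated arrays seen at 37 °C and 41.5 °C was not seen at 44 °C, as values with no test. GDF15, a p53-responsive cytokine, had opposite signs, -0.80 in the irradiated and 0.94 in the non-irradiated pair. MIR3189, which lies within GDF15, had -1.90 and -0.44.

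Of 30 listed p53 targets 16 were measured, and CDKN1A and MDM2 had no feature under their symbol. Over the 16, 2 were called higher (12.5%, against 4.9% of all genes) and 1 lower (6.25%, against 7.23%). The median difference was -0.33 in the irradiated pair and 0.27 in the non-irradiated pair. Positive values numbered 3 of 16 in the irradiated and 12 of 16 in the non-irradiated pair. The calls of the rises, SESN2 and PMAIP1, were lost without HT 41.5 (adjusted p = 0.303 and 0.179) and without HT 44 (0.330 and 0.227), and without other arrays. G2/M and mitosis genes ran the other way. Their median was 0.53 in the irradiated and -0.12 in the non-irradiated pair, with 34 and 12 of 36 values positive. Of the 36, 5 were called higher (13.9%, against 4.9% of all genes) and 0 lower. PTTG1, or securin, was at 5.33 in IR_HT 44 against 4.19 in IR_HT 41.5, and at 5.61 in HT 44 against 4.96 in HT 41.5, a rise of 0.90 ± 0.17 that lost its call without IR_HT 41.5 (0.61, adjusted p = 0.0689). CCNF, a cyclin-like F-box gene, was at 6.91 in IR_HT 44 against 5.85 in IR_HT 41.5, but at 7.02 in HT 44 against 7.25 in HT 41.5. GAS2L3, a cytoskeletal linker, was at 8.04 in IR_HT 44 against 6.54 in IR_HT 41.5, and at 8.01 in HT 44 against 7.85 in HT 41.5. In each of PTTG1, CCNF and GAS2L3 the IR_HT 41.5 array held the lowest of the 6 values. CCNF and GAS2L3 were named for their high gap between the pairs, a choice that favours a low value there. At 37 °C the IR array also lay below the control: 5.03 against 5.19 for PTTG1, 6.57 against 7.31 for CCNF and 7.18 against 7.88 for GAS2L3.

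**Figure D5:**
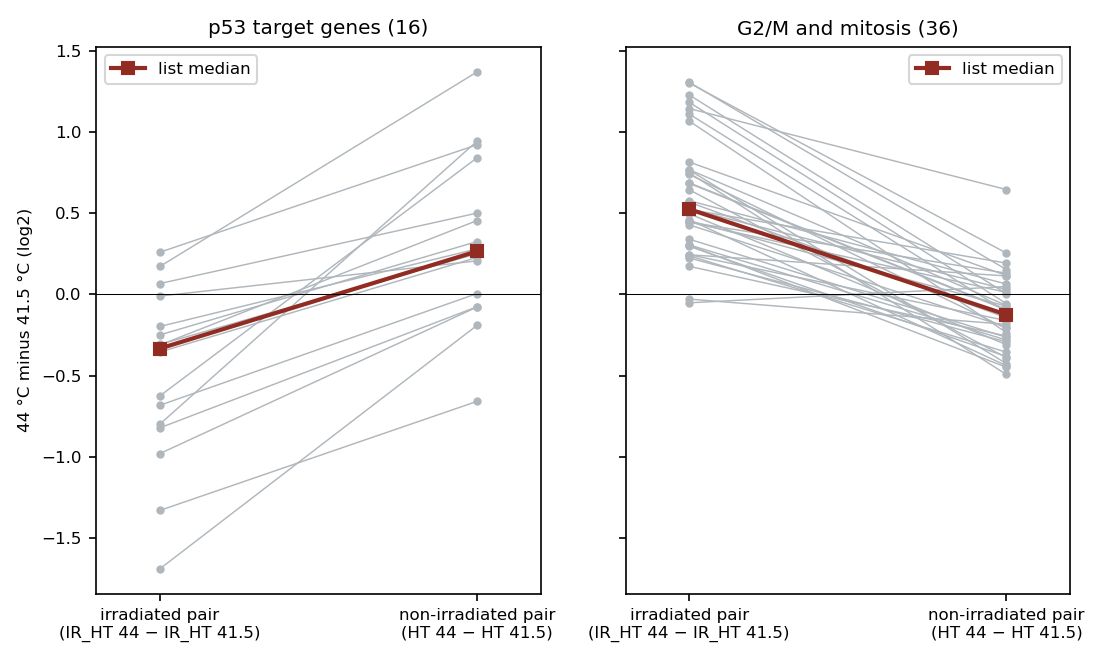
Log2 difference of 44 °C minus 41.5 °C (y axis) of each measured p53 target (16, left panel) and G2/M gene (36, right panel) in the irradiated and the non-irradiated pair, with grey lines joining the values of 1 gene and red squares at the list medians. The p53 median is -0.33 in the irradiated and 0.27 in the non-irradiated pair, and the G2/M median 0.53 and -0.12.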

How the data were processed

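Total RNA (300 ng a sample, per the labels' protocols) was amplified after random priming and biotin-labelled for Affymetrix arrays. Per the submitters' processing notes, Affymetrix Expression Console 1.1 and RMA made the deposited values, which are on the log2 scale, background-corrected and normalized between arrays by the authors (genome build not given in the sources used here). From this series the value table was used with the platform annotation, which names 16098 of 53617 features; the 37519 others entered an alternative only. All symbols were matched to RefSeq by gene ID.

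An additive model (temperature as a 3-level factor, plus radiation) was fitted to the 6 arrays with limma 3.58.1 in R 4.3.3 (eBayes with intensity trend, 2 residual and 8.06 prior degrees of freedom). The radiation term pairs the arrays by dose. P-values are two-sided and Benjamini-Hochberg adjusted over 14884 genes. The steps were tested on simulated data. Fold changes are differences of log2 values, and errors are standard errors.

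Named genes are, among called genes above the median level with 1 sign in both pairs, the 6 largest of each pattern and direction. To these come the 2 highest and 2 lowest called members of each of 39 lists and the 4 highest and lowest gaps between pairs above the median level. A fixed set of heat shock, early, chemokine, p53 target and microRNA genes was added. Of that set, DNAJB1, CDKN1A and MDM2 had no feature under their symbol. The members and lists were chosen with earlier results of these data known. Lists are described by counts and medians of their measured members, without a set test. Alternatives were the moderation, the radiation term, the scaling, the filter on low values, the choice of features, the pattern rule and leaving out each array.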

Additional observations from a re-analysis of the deposited data

Results flagged for a closer look

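Some values had opposite signs in the irradiated pair (IR_HT 44 minus IR_HT 41.5) and the non-irradiated pair (HT 44 minus HT 41.5). Each pair is 1 array against 1 array, and the difference between the pairs was not tested. The gap, irradiated minus non-irradiated pair on the log2 scale, was -1.74 for GDF15 (-0.80 against 0.94), -1.47 for TP53INP1 (-0.62 against 0.84), 1.30 for CCNF (1.07 against -0.23), 1.32 for MIR891A (1.01 against -0.31) and -0.11 for HSPB1 (-0.07 against 0.04). TP53INP1, a p53 target, was at 6.32 in IR_HT 44 against 6.94 in IR_HT 41.5, and at 5.90 in HT 44 against 5.06 in HT 41.5. MIR891A was at 5.94 in IR_HT 44 against 4.94 in IR_HT 41.5, and at 5.81 in HT 44 against 6.12 in HT 41.5.

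The medians of 13 lists also had opposite signs in the pairs. The gap was 0.65 for the G2/M and mitosis genes (0.53 against -0.12) and -0.60 for the p53 targets (-0.33 against 0.27). It was 0.28 for the metallothioneins (0.09 against -0.19) and -0.18 for the BCL2 family (-0.07 against 0.11). For the serine/arginine splicing factors and kinases it was 0.16 (0.05 against -0.11), and for hnRNP and other splicing regulators 0.16 (0.003 against -0.16). The remaining gaps were 0.10 or smaller in size: 0.10 for housekeeping genes, 0.10 for leukocyte markers, -0.0903 for the unfolded protein response, 0.0677 for ubiquitin genes and deubiquitinases, 0.0669 for A549 and epithelial markers, -0.0561 for the integrated stress response and -0.0499 for long intergenic noncoding RNAs.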

How the results depend on the processing

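Without an intensity trend in the moderation, 791 genes were called, 397 higher and 394 lower, with 220 and 62 threshold-like, 3 and 0 graded, and 1 and 4 reversed genes (higher and lower). A further quantile normalization gave 681 higher and 1151 lower genes and 352 threshold-like falls, and median centring 580 and 1432, with 356. Both shifted the median of all differences by little (-0.02 and -0.06). Restricting the fit to genes above the median level left 81 and 42 genes at least 2-fold higher and lower. All features, named or not, gave 1515 higher and 1012 lower calls, with 932 and 408 at least 2-fold. Requiring 2-fold falls in both pairs left 43. Patterns set by size of step rather than by calls gave 101 and 22 graded and 334 and 806 reversed genes. The 4 heated arrays alone gave 1276 calls, of which 1261 were among the 1805.

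Leaving out each array in turn gave 1024 to 1299 calls, 440 to 626 higher and 570 to 801 lower, with 154 to 193 and 68 to 106 at least 2-fold higher and lower. Threshold-like genes then numbered 173 to 311 higher and 25 to 215 lower, graded genes 4 to 36 and 0 to 3, and reversed genes 2 to 129 and 10 to 245. The lowest counts of reversed genes came without the control or IR. GDF15 (0.07 with all arrays) ran from -0.64 without HT 44 (adjusted p = 0.0234, limma) to 0.79 without IR_HT 44 (adjusted p = 0.0071, limma), called in opposite directions. Of the 132 named genes, 100 kept their side of the threshold and their direction without the trend, 129 after quantile normalization and 128 after median centring. The fit is itself paired by dose through the radiation term, and without that term 1796 genes were called. The labels give no replicate numbers for a further block. The causes of these shifts were not tested. With 1 array per group, no radiation effect on a single step can be tested.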
